A study of Mus musculus with 4 samples.

Results

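The mRNAs of numbered zinc finger proteins were compared between the mitochondrial fraction and the rest of the adult mouse heart. Members were the protein-coding genes with a symbol made of Zfp and a number, Zfp36 excepted, whose mean deposited normalized count over all 4 libraries was at least 30. This gave 107 of the 307 such genes in the table of 15746 genes, and the 200 others had lower means. RNA-sequencing had been carried out on wild type (WT) hearts, with 2 libraries of isolated mitochondria and 2 of the tissue minus mitochondria, called the rest fraction here. The rest fraction was the low-speed pellet of the heart homogenate, which also holds nuclei and unbroken cells, and the mitochondria were pelleted from its supernatant. Only the mitochondrial samples were treated with digitonin, which opens membranes, and RNase A, which digests RNA outside the organelles, and only their fragmentation time was adjusted. These steps cannot be told apart from the fraction, and no untreated whole-heart RNA was analysed here. The labels number the libraries of each fraction 1 and 2 without saying whether they came from separate animals, so that p-values measure the spread between these libraries, which may be technical.

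Zinc finger proteins carry short folds in which a zinc ion is held by pairs of cysteines and histidines (C2H2 fingers). Arrays of such fingers bind DNA, and many of the proteins add a KRAB domain, which recruits the corepressor Trim28 and silences chromatin, or a SCAN domain, which joins proteins to each other. A few members bind RNA, ribosomes or ubiquitin instead, and Zfp260 is known in the heart as a transcriptional regulator that works with GATA factors. All of them are encoded in the nucleus and translated in the cytosol.

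The repeated unit behind the name is shown for 5 members because it is the feature that gives the family its name. Of the 107 members, 48 held at least 1 unit of 84 bases within 1 exon that begins with the conserved linker between fingers and ends at the last histidine of the next finger. The first unit is given for the members with the lowest and the highest log2 fold changes among these 48 (Zfp26 and Zfp950, Zfp120 and Zfp251) and for Zfp260. The sequences run 5′ to 3′ on the coding strand and come from GENCODE transcripts on GRCm38, and capitals mark the codons of the 2 cysteines and the 2 histidines.
Zfp26, chr9:20437917-20438000, minus strand: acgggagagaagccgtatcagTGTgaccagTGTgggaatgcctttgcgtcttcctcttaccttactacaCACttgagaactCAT
Zfp950, chr19:61120269-61120352, minus strand: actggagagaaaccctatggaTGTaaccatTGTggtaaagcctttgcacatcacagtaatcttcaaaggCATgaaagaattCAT
Zfp120, chr2:150117849-150117932, minus strand: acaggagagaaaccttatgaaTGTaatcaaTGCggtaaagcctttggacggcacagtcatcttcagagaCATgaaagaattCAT
Zfp251, chr15:76854136-76854219, minus strand: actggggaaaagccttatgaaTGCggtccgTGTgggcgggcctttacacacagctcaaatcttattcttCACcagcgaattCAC
Zfp260, chr7:30105136-30105219, plus strand: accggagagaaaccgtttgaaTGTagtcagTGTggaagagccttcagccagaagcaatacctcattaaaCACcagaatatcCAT

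The units of Zfp950 and Zfp120 were identical at 72 of 84 bases (85.71%), and the other 9 pairs at 49 to 55 bases. Zfp120 had 54 and 36 normalized counts in the mitochondrial and 26 and 36 in the rest libraries (replicate 1 first, as in all pairs of values), and the values of Zfp950 are given with the most negative fold changes. Reads that aligned to several regions had been excluded by the authors, so near-identical stretches lower the count of the genes that share them. At the read length of 75 bases, 46 of the 106 members with a complete coding transcript shared at least 1 stretch with another gene, and 7 shared over 20% of their transcript. In 5 of those 7 (Zfp532, Zfp865, Zfp507, Zfp106 and Zfp597) the gene that shared the most lies at the same place on the opposite strand, and in Zfp617 and Zfp330 it lies elsewhere. Reads that overlap several genes were excluded by the authors too, so the counts of all 7 are uncertain. Exons of another gene on the same strand overlapped 7 members, so that their counts are uncertain too. Among these were Zfp865 (15.9% of its exonic bases), Zfp652 (11.8%) and Zfp91 (8.43%). Exons of a gene on the opposite strand overlapped 31 members, 16 of them over more than 5% of their exonic bases, with 19.3% in Zfp652. The library kit marks strand, but its use in the counting is not given in the sources used here, so that reads of such pairs may not have been told apart.

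Zfp106 stood far above the other members. It had 10895 and 10648 normalized counts in the mitochondrial libraries, replicate 1 first, and 4350 and 5309 in the rest libraries. Among all nuclear protein-coding genes it ranked 17th and 10th in the mitochondrial and 26th and 18th in the rest libraries. Per kb of transcript, the mean level of Zfp106 was 1186 normalized counts for mitochondria and 532 for the rest fraction. By the same per-kb measure, Zfp207 was next in both fractions, at 77.8 and 132 on a transcript of 1562 bases. Reads were counted over all exons of a gene, which for Zfp207 hold 6658 bases, so that its rank depends on the transcript chosen. Zfp644 had 60.3 and 56.0, Zfp651 54.2 and 34.5, and Zfp638 24.6 and 59.6. Without Zfp106, the members spanned 4 to 488 normalized counts in mitochondrial replicate 1 and 10 to 472 in replicate 2. In rest replicates 1 and 2 they spanned 22 to 404 and 19 to 390. Over all 107 members, Zfp106 included, the medians were 50 and 48 in the mitochondrial and 67.0 and 71.0 in the rest libraries. Zfp652 was the highest of the others in each of the 4 libraries. The family without Zfp106 was thus made of low-level transcripts, and the median over all members was lower in both mitochondrial libraries.

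**Figure D1:**
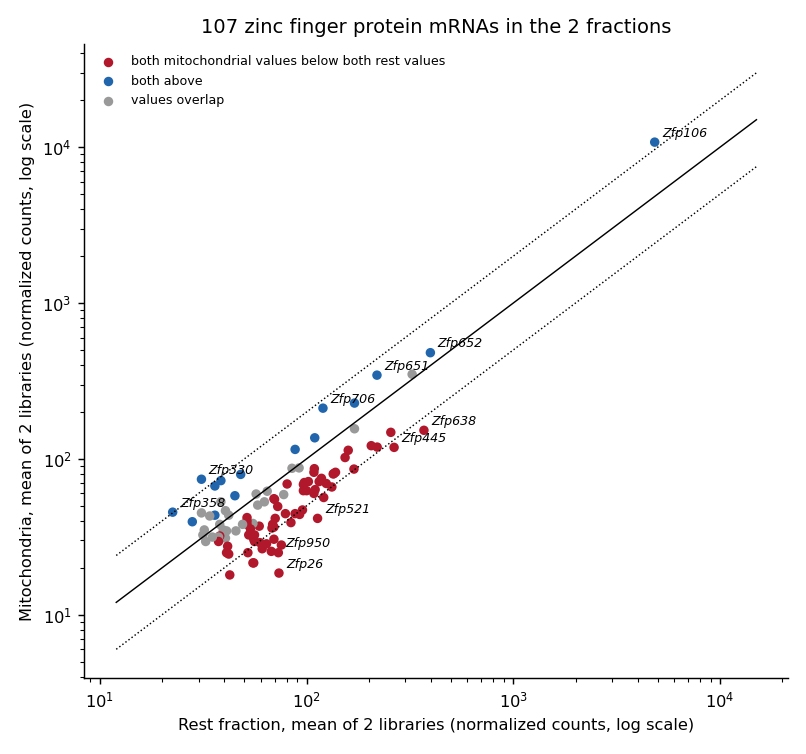
Each point is 1 of the 107 members, plotted by its mean normalized count in the 2 rest libraries (x axis, log scale) and in the 2 mitochondrial libraries (y axis, log scale). The solid line marks equal levels and the dotted lines a 2-fold difference; 65 members have both mitochondrial values below both rest values, 15 have both above, and Zfp106 lies apart from all others.

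The depth behind these values was uneven. A single read was worth 3.87 and 2.55 normalized counts in mitochondrial replicates 1 and 2, in which the mitochondrial chromosome took 97.6% and 93.5% of the counts. In the rest libraries, where it took 63.2% and 67.5%, a read was worth at most 1 normalized count. In consequence, 39 members had fewer than 10 reads in mitochondrial replicate 1 and 7 in replicate 2. The difference between replicates had a median size of 0.40 on the log2 scale in mitochondria and 0.16 in the rest fraction, and 18 members differed more than 2-fold between the mitochondrial replicates and 0 between the rest replicates.

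On balance the members were lower in mitochondria. Both mitochondrial values lay below both rest values for 65 members (60.7%, against 33.4% of all 12150 genes tested and 36.6% of the 7057 protein-coding genes with the same minimum mean). However, 17 members had a mean under 30 in mitochondria and could pass the rule only through the rest fraction, and 16 of the 65 were among them. Of the 88 members with a mean of at least 30 in both fractions, 49 (55.7%) were lower and 13 (14.8%) higher without overlap, with a median log2 fold change of -0.46. Over all members, both mitochondrial values lay above for 15 (14.0%, against 27.7% and 29.5%). The median log2 fold change of mitochondria over rest was -0.57 over the members, with quartiles of -0.89 and -0.12, beside -0.14 over all genes tested and -0.10 over the protein-coding genes of the same minimum mean. The log2 fold change was negative for 83 members (77.6%, against 56.2% and 55.2%), below -1 for 19 members (17.8%, against 17.4% and 11.0%) and above 1 for 2 members (1.87%, against 11.7% and 9.91%). Of the 88 members with a mean of at least 30 in both fractions, 8 (9.09%) were below -1. All 107 members passed the filter for testing, and 2 had a mean under 30 in the rest fraction and could enter only through mitochondria. In these bulk samples, fewer cells of a type and less RNA per cell cannot be told apart.

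The sign of a fold change depended on the scaling. With libraries scaled to their total, the median over all genes moved from -0.14 to -3.93, and with the total without the mitochondrial chromosome to -0.98. Relative to the median of all genes, 79 members were lower as deposited, 81 with the library total and 80 with the total without the mitochondrial chromosome. The distance of the members' median from that of all genes was -0.43, -0.49 and -0.44 under the 3 scalings. Fold changes below are given as deposited.

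Few single members passed the test. By limma's moderated test, with Benjamini-Hochberg adjustment over all genes tested, 1 member was lower at an adjusted p under 0.05, where 1.39% of all genes were lower, and 0 were higher, where 2.16% were higher. At an unadjusted p under 0.05, 36 members were lower, against 16.2% of all genes, and 4 were higher, against 14.1%. With scaling to the total without the mitochondrial chromosome, 66 members and 3819 genes (31.4%) were called lower and 0 members and 129 genes (1.06%) higher, and with scaling to the library total 107 members and 12022 genes were called lower and 0 members and 2 genes higher. When only the 7503 genes with a mean of at least 30 were tested, 13 members were called lower and 2 higher, beside 8.53% and 10.7% of the genes tested. Members called lower and higher were 2 and 1 with TMM scaling (2.72% and 3.86% of genes), 3 and 2 with a pseudocount of 10 (4.77% and 4.41%), and 3 and 0 with the replicate number in the model (2.54% and 3.87%).

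**Figure D2:**
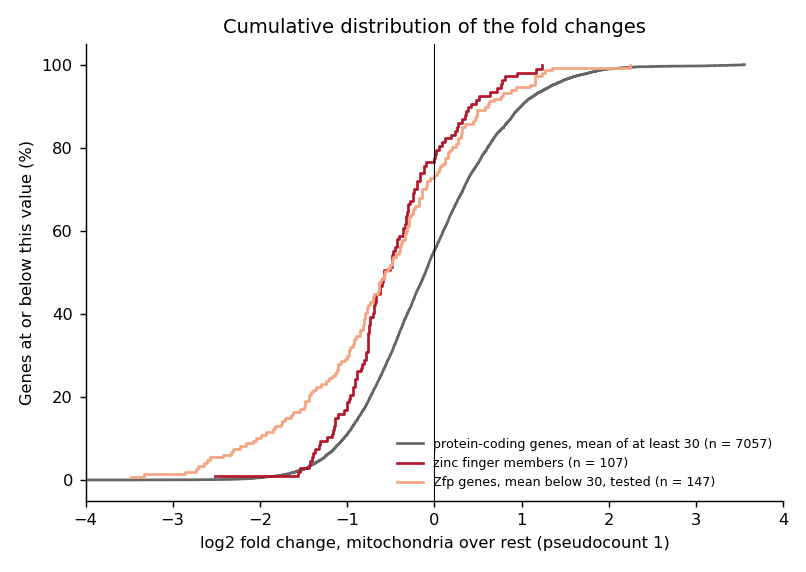
Cumulative share of genes (y axis, percent) at or below each log2 fold change of mitochondria over rest (x axis, normalized counts plus 1) for the 107 members, the 147 tested Zfp genes with a lower mean and the 7057 protein-coding genes with a mean of at least 30. Both Zfp curves lie to the left of that of the protein-coding genes over most of the range, with medians of -0.57, -0.56 and -0.10.

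Zfp445 was the member that fell at an adjusted p under 0.05. It encodes a zinc finger protein known for keeping the methylation of imprinted genes, and lies at chr9:122844529-122866006 on GRCm38. It had 120 and 117 normalized counts in the mitochondrial libraries, from about 31 and 46 reads, and 266 and 264 in the rest libraries. The fractions did not overlap, and replicates differed by a few counts. It was 2.23-fold lower in mitochondria (log2 fold change -1.15, standard error 0.172, adjusted p = 0.0473 by limma). In the 4 fits that each left out 1 library its log2 fold change stayed between -1.17 and -1.14, but the call was lost in each of them and with a pseudocount of 0.1, where 0 genes of the whole table were called.

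Zfp106 had the opposite direction. Its protein binds RNA and is needed to maintain motor neurons and skeletal muscle, and the gene lies at chr2:120506820-120563843. The mitochondrial values were 2.24-fold above those of the rest fraction and did not overlap them (log2 fold change 1.16, standard error 0.213, adjusted p = 0.0565 by limma). This missed the threshold, and it passed with an adjusted p of 0.0302 when genes with a mean of at least 30 were tested. The direction was the reverse with the library total, at -2.82. With the total without the mitochondrial chromosome the log2 fold change was 0.30 (adjusted p = 0.471 by limma). As a share of the counts outside the mitochondrial chromosome, Zfp106 had 0.244% and 0.201% in mitochondria and 0.170% and 0.190% in the rest fraction, while the other members summed to 0.163% and 0.134% in mitochondria and 0.364% and 0.339% in the rest. The antisense gene Gm26899 covers 26.1% of the exonic bases of Zfp106, and its part in the value was not tested.

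Zfp330, a cysteine-rich nucleolar protein with 0 matches to the C2H2 pattern, had the highest log2 fold change of the members. It had 74 normalized counts in each mitochondrial library and 29 and 33 in rest replicates 1 and 2, without overlap (log2 fold change 1.23, standard error 0.243, adjusted p = 0.0605). Of its 75-base stretches, 21.8% occur in other genes, 10.9% in Gm7785 alone, so that its count is uncertain. Zfp358 followed, with 58 and 33 in mitochondria and 26 and 19 in the rest fraction (log2 fold change 0.95, adjusted p = 0.193). Zfp622, a factor of large ribosomal subunit assembly, had 97 and 48 in mitochondria and 39 and 38 in the rest fraction (log2 fold change 0.81, adjusted p = 0.243). In Zfp358 and Zfp622 the groups did not overlap, but mitochondrial replicate 1 was far above replicate 2. With the library total as scale the log2 fold changes of all these members were negative. With the total without the mitochondrial chromosome they were 0.39 for Zfp330, 0.11 for Zfp358 and -0.036 for Zfp622.

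The member with the most negative log2 fold change was Zfp26, a KRAB zinc finger protein. It had 4 and 33 normalized counts in mitochondria, which are about 1 and 13 reads, and 69 and 78 in the rest fraction. The groups did not overlap, but the 4 counts lie under the 11.6 that 3 reads give in this library. The fitted value was -2.51 (log2 fold change, with a standard error of 0.944 and an adjusted p of 0.161 by limma). It moved between -3.89 and -1.13 over the 4 fits that each left out 1 library. The lowest value came without mitochondrial replicate 2 and the highest without mitochondrial replicate 1. Zfp398 had 15 and 41 in mitochondria and 72 and 79 in the rest fraction (log2 fold change -1.56, adjusted p = 0.133, and -0.86 without mitochondrial replicate 1 and -2.26 without mitochondrial replicate 2). Zfp950, another KRAB protein, had 19 and 31 in mitochondria and 69 and 77 in the rest fraction (log2 fold change -1.55, adjusted p = 0.0669). In Zfp398 and Zfp950 the mitochondrial values were again below those of the rest fraction in both replicates. Zfp521, a protein with 27 finger matches that is known to restrain differentiation of stem and fat cell precursors, had 35 and 48 in mitochondria and 113 in each rest library. Its groups lay far apart (log2 fold change -1.44, standard error 0.257, adjusted p = 0.0551, and 0.0488 in the fit blocked by replicate).

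**Figure D3:**
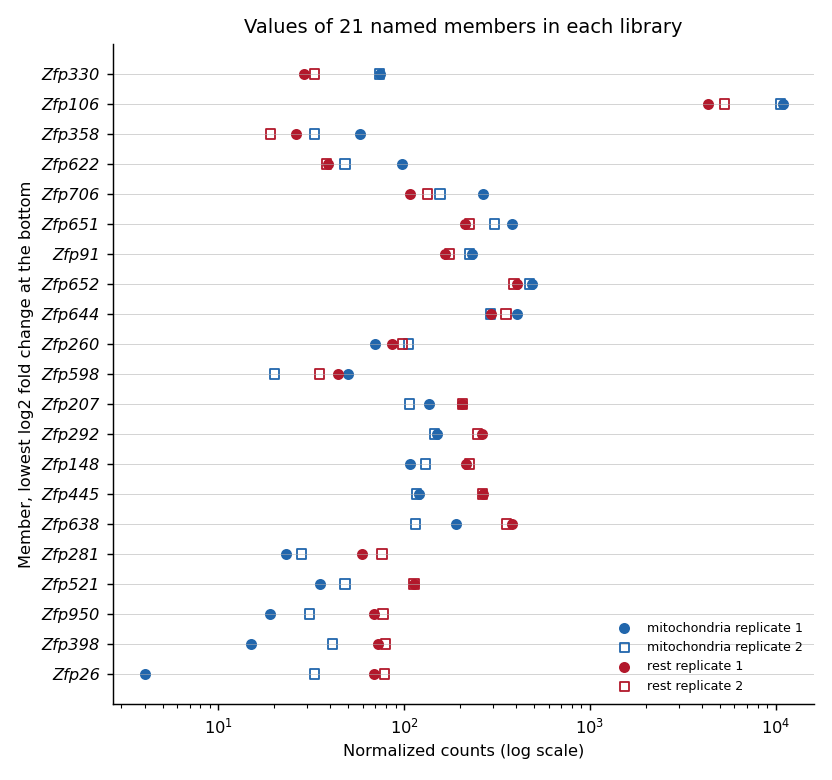
Normalized counts (x axis, log scale) of 21 members in each of the 4 libraries, ordered by log2 fold change from the lowest at the bottom to the highest at the top. Blue marks mitochondria and red the rest fraction, with circles for replicate 1 and squares for replicate 2; the mitochondrial replicates of Zfp26 lie at 4 and 33 and the rest replicates at 69 and 78.

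Among the other abundant members, directions were mixed. Zfp638, a nuclear protein that takes part in RNA processing and silencing, had 190 and 115 normalized counts in mitochondria, against 382 and 357 in the rest fraction (log2 fold change -1.31, adjusted p = 0.0673, and 0.0450 in the fit blocked by replicate). Zfp292 had 151 and 145 in mitochondria and 262 and 249 in the rest fraction (log2 fold change -0.78, adjusted p = 0.0673). Neither gene's groups overlapped. Zfp652, a transcriptional repressor, had 488 and 472 in mitochondria and 404 and 390 in the rest fraction, a small difference without overlap (log2 fold change 0.27, adjusted p = 0.302). Zfp651 had 383 and 306 against 213 and 225 in the rest fraction (log2 fold change 0.64, adjusted p = 0.115). Zfp644 had 407 and 291 against 295 and 353, so that the groups overlapped (log2 fold change 0.09, adjusted p = 0.814). Of the 20 members with a mean of at least 100, 11 (55.0%, against 33.4% of all genes) were lower and 7 (35.0%, against 27.7%) higher without overlap, and the log2 fold changes of Zfp652, Zfp651 and Zfp644 were negative with either total as scale.

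The members listed here for roles on RNA, ribosomes or ubiquitin were divided. The list was broad, and Zfp207 is described below by another role. Of 13 such members, 6 (46.2%, against 33.4% of all genes) were lower without overlap (Zfp638, Zfp451, Zfp318, Zfp326, Zfp207 and Zfp346), 5 (38.5%, against 27.7%) were higher without overlap (Zfp330, Zfp106, Zfp622, Zfp706 and Zfp91) and 0 passed the adjusted test, with a median log2 fold change of -0.24. At an unadjusted p under 0.05, 5 were lower (38.5%, against 16.2% of all genes) and 2 were higher (15.4%, against 14.1%). Zfp706, a small protein that represses translation in stem cells, had 267 and 156 in mitochondria and 107 and 133 in the rest fraction (log2 fold change 0.77, adjusted p = 0.190). Zfp91, a ubiquitin ligase, had 232 and 224 against 166 and 175 (log2 fold change 0.42, adjusted p = 0.184). Both were above the rest fraction in each library. Zfp207, which helps to assemble the mitotic spindle, had 136 and 107 against 205 and 206 (log2 fold change -0.76, adjusted p = 0.0956). Zfp598, a ubiquitin ligase that senses collided ribosomes, had 50 and 20 against 44 and 35, and its groups overlapped (log2 fold change -0.30, adjusted p = 0.715). Zfp91 and Zfp706 turned negative with either total as scale.

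Transcriptional regulators with a described role followed. Zfp260 had 70 and 105 normalized counts in mitochondria, against 86 and 98 in the rest fraction, which overlapped (log2 fold change -0.10, standard error 0.280, adjusted p = 0.834). Zfp148, which binds GC-rich promoters, had 108 and 130 against 214 and 225 (log2 fold change -0.88, adjusted p = 0.0682). Zfp281, known for the control of pluripotency genes, had 23 and 28 against 59 and 76 (log2 fold change -1.37, adjusted p = 0.0650). Both were lower in mitochondria without overlap, and neither passed the threshold. Of the 10 members described for their known role, 4 were lower and 4 higher without overlap (40.0% each, against 33.4% and 27.7% of all genes).

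The encoded proteins were grouped by motifs found in the translated GENCODE transcripts. The C2H2 pattern (2 to 4 residues between the cysteines, 12 before the histidines and 3 to 5 between these) matched at least once in 105 of 106 members, against 5.05% of 12260 protein-coding genes, and the KRAB pattern (leucine and tyrosine, then valine and methionine, then glutamate, at the spacing of the A box) matched in 30 members (28.3%, against 1.73%). The median log2 fold change was -0.60 over the 30 members with a KRAB match, of which 19 (63.3%, beside 60.7% of all members) were lower and 3 (10.0%, beside 14.0%) higher without overlap. It was -0.76 over the 5 with a SCAN match and no KRAB match, of which 4 (80.0%) were lower and 0 higher. It was -0.51 over the 49 with at least 5 finger matches and no KRAB or SCAN match (31 or 63.3% lower, 6 or 12.2% higher). It was -0.31 over the 22 with at most 4 finger matches and no KRAB or SCAN match (10 or 45.5% lower, 6 or 27.3% higher). Of all genes tested, 33.4% were lower and 27.7% higher without overlap. The 2 members with a log2 fold change above 1, Zfp106 and Zfp330, were both among those 22. Zfp469 had no complete coding transcript and was left out. A missing match says only that these letters were not found, so the groups without a KRAB match may hold proteins with that domain. Differences between these groups were not tested.

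**Figure D4:**
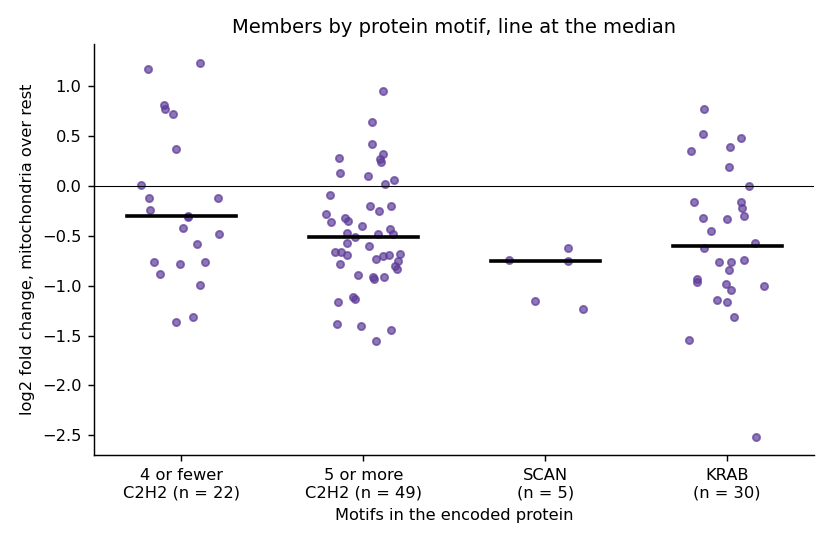
Log2 fold change of mitochondria over rest (y axis) for each of 106 members, grouped by the motifs of the encoded protein (x axis), with a line at the median of each group. The medians are -0.31, -0.51, -0.76 and -0.60 from left to right, and the points within each group spread more widely than the medians differ.

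Transcript length moved with the fold changes. Across genes, which are not independent replicates, Spearman's rho between transcript length and log2 fold change was -0.26 over 106 members and -0.54 over 7028 protein-coding genes, and all points share the same 4 libraries. The members' transcripts were longer, with a median of 4322 bases beside 3596. Between 4000 and 6000 bases, the median log2 fold change was -0.38 over 30 members and -0.39 over 1711 protein-coding genes. Between 2000 and 3000 bases it was -0.14 over 16 members and 0.15 over 1325 genes, and between 3000 and 4000 bases -0.47 over 20 members and -0.18 over 1292 genes. From 6000 to 10000 bases it was -0.72 over 28 members and -0.56 over 1069 genes, and above 10000 bases -0.91 over 7 members and -0.77 over 244 genes. Up to 2000 bases it was -0.76 over 5 members and 0.73 over 1387 genes. The median of the members was thus near that of other genes in the length range that held the most members and below it in the 5 other ranges, by 0.14 to 1.49 on the log2 scale. The part of length, and of the fragmentation that differed between the fractions, was not tested. The number of finger matches had a rho of -0.29 and the GC content of the transcript 0.17 over the 106 members.

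**Figure D5:**
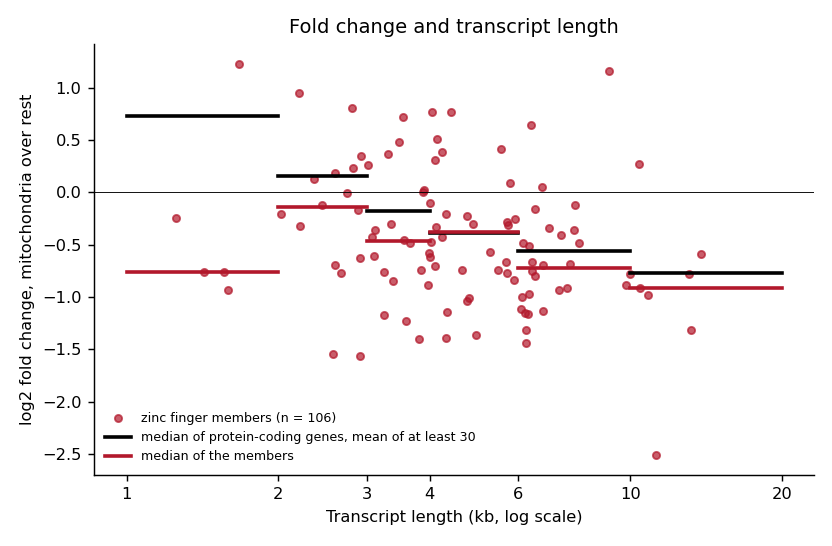
Log2 fold change of mitochondria over rest (y axis) against transcript length in kb (x axis, log scale) for 106 members, with the median of the members (red lines) and of 7028 protein-coding genes with a mean of at least 30 (black lines) in 6 length ranges. Both medians are near -0.38 between 4 and 6 kb; the outer ranges are drawn from 1 kb and to 20 kb.

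Many members lie side by side. Of 19 chromosomes with members, 17 had a negative and 2 a positive median log2 fold change. Chromosome 7 held 20 members, of which 12 were lower and 0 higher without overlap, and the 8 members on chromosome 18 were lower without overlap. Of all members 60.7% were lower and 14% higher without overlap, and of all genes 33.4% and 27.7%. Chromosome 15 had 4 members with 0 lower and 3 higher (median 0.77), chromosome 2 had 4 with 1 lower and 1 higher (median 0.16), and chromosome 8 had 9 with 5 lower and 3 higher. When members at most 200000 bases apart were joined, 9 clusters held 23 members. In 8 clusters every log2 fold change was negative, and in 1, Zfp979 and Zfp933 on chromosome 4, both were positive. The largest, at chr7:29768552-30169750, held Zfp84, Zfp30, Zfp790, Zfp27, Zfp568, Zfp260 and Zfp146, with log2 fold changes from -0.84 to -0.10. Zfp26 and its neighbour Zfp266 (43 and 46 in mitochondria, 90 and 86 in the rest fraction) had log2 fold changes of -2.51 and -0.97.

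Of the 200 Zfp genes with lower means, 147 could be tested. Their median log2 fold change was -0.56, with 108 of 147 negative, but 0 passed the adjusted test in limma and 23 (15.6%, against 16.2% of all genes) were lower at an unadjusted p under 0.05. Without overlap, 60 (40.8%, against 33.4%) were lower and 18 (12.2%, against 27.7%) higher. Their share of genes lower at that unadjusted p was thus near that of all genes. Their shares lower without overlap and with a negative log2 fold change (73.5%, against 56.2%) were above those of all genes. At the limit of the rule, Zfp469 had a mean of 30.25 and Zfp51 and Zfp777 had means of 29.75. Zinc finger genes under other symbols also had mostly negative medians, beside -0.14 over all genes tested. By the adjusted test, 1.39% of all genes were lower and 2.16% higher. The median log2 fold change was -0.40 over 33 Zbtb genes (1 lower, 0 higher by the adjusted test), -0.58 over 16 Zkscan and Zscan genes (0 and 0), and -0.77 over 15 Klf and Sp genes (0 and 0). It was -0.32 over 14 Zc3h genes, whose fingers bind RNA (2 lower, 1 higher), -0.36 over 14 Zdhhc genes, which encode palmitoyltransferases (0 and 0), and 0.13 over 7 Zfand genes (0 and 0). Zbtb37 had 46 and 33 normalized counts in mitochondria, against 138 and 139 in the rest fraction (log2 fold change -1.80, adjusted p = 0.0469). Zc3h13, part of the complex that methylates adenosine in mRNA, had 624 and 732 against 266 and 275 (log2 fold change 1.32, adjusted p = 0.0427). The 2 Zc3h genes called lower were Zc3h7a and Zc3h11a. Zc3h7a had 43 and 33 against 122 and 130 (log2 fold change -1.71, adjusted p = 0.0469 by limma). Zc3h11a had 4 and 5 against 38 and 50 (log2 fold change -3.03, adjusted p = 0.0428 by limma), with mitochondrial values under the 11.6 and 7.65 that 3 reads give.

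The partners of KRAB proteins had a median near 0. Of 20 listed genes of the KRAB corepressor machinery, 18 were tested, and their median log2 fold change was -0.04. By the adjusted test 0 were lower and 1 was higher, against 1.39% and 2.16% of all genes. Trim28, the corepressor that KRAB domains bind, had 93 and 79 normalized counts in mitochondria, against 116 and 105 in the rest fraction (log2 fold change -0.36, adjusted p = 0.314). Setdb1, the histone methyltransferase it recruits, had 39 and 41 against 55 and 59 (log2 fold change -0.50, adjusted p = 0.232). Both were lower without overlap, and neither passed the adjusted test. Nap1l1, a histone chaperone, was the one that rose, with 658 and 645 against 212 and 281 (log2 fold change 1.41, adjusted p = 0.0469).

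Markers of cell types and of nuclear RNA also differed between the fractions. The 7 endothelial markers summed to 2015 and 1777 normalized counts in mitochondria, against 3631 and 3181 in the rest fraction, and all 7 were lower without overlap. The 8 heart muscle markers summed to 290431 and 215901 against 240580 and 211067, with 6 higher and 1 lower without overlap. The 7 fibroblast markers summed to 8386 and 3558 against 2248 and 3200, with 5 higher and 1 lower, and 5 of 7 leukocyte markers to 538 and 322 against 198 and 279, with 4 higher, while Cd3e and Cd79a were not analysed here. The 5 smooth muscle and pericyte markers analysed summed to 1624 and 1701 against 2648 and 3165, with 2 of them (Myh11 and Rgs5) lower without overlap, Acta2 overlapping and Pdgfrb and Cspg4 at log2 fold changes of 0.51 and 0.20, and the 5 red cell markers to 50 and 341 against 824 and 440, with all 5 lower without overlap. The 6 lncRNAs of a list of nuclear RNAs, which Malat1 led and which held also the largely cytoplasmic Gas5 (23 and 8 against 21 and 20), summed to 13683 and 8768 against 43221 and 45737, and 4 of them were lower without overlap. Every log2 fold change was negative, as for most members, in the endothelial and red cell lists. All 6 lncRNAs of the nuclear list, Gas5 included, were negative too, 4 of them without overlap, while Gas5 and Meg3 overlapped. The smooth muscle and pericyte list had a negative median (-0.89), and the heart muscle, fibroblast and leukocyte lists had positive ones (1.23, 0.93 and 0.88). The part of these lists in the members' values was not tested.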

How the data were processed

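The deposited table gives a score for each gene and library: the authors trimmed 75-base reads with Trimmomatic 0.39, aligned them to mm10 with STAR 2.7.10a, counted exonic reads with featureCounts 2.0.2 and divided by DESeq2 1.30.1 size factors (versions from the submitters' processing notes; the paper names others), and the values are rounded to whole numbers. A count test therefore did not apply. The 12150 genes that reached 10 normalized counts in 2 or more libraries were fitted with limma 3.58.1 (R 4.3.3, eBayes with trend, no replicate block) on log2 of the value plus 1, called at an adjusted p under 0.05. Fold changes are on this scale, which understates those of low genes. The number of reads behind a mitochondrial value came from the spacing of the values. The code was tested on simulated data. Members and lists were chosen with earlier results of these data known. Named members were the 8 with the highest mean, up to 8 called in each direction, the 4 highest and 4 lowest fold changes and a list of known roles. Longest coding transcripts of GENCODE M21 (GRCm38) gave lengths, motifs and shared 75-base stretches. Alternatives were other scalings, filters, pseudocounts and minimum means, the replicate block and leaving out each library. Columns of the authors' own comparisons (fold changes, p-values) were not used.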

Additional observations from a re-analysis of the deposited data

How the results depend on the processing

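The calls depended on the settings, while the members' position below other genes did not change sign. Members called lower and higher numbered 2 and 1 with TMM scaling (327 and 464 of all genes), 107 and 0 for scaling to the library total (12022 and 2), 66 and 0 when that total left out the mitochondrial chromosome (3819 and 129), 13 and 2 with a minimum mean of 30 (640 and 805), 0 and 0 with a pseudocount of 0.1 (0 and 0), and 3 and 2 with a pseudocount of 10 (580 and 536), beside 1 and 0 (169 and 262) as reported. Without a filter, 630 genes were called lower. With the pseudocount of 0.1, 34 members and 1754 genes were lower and 4 members and 1694 genes higher at an unadjusted p under 0.05. The members' median log2 fold change was -4.42 when scaled to the library total, -1.41 when that total left out the mitochondrial chromosome, -0.46 with a pseudocount of 10, -0.51 with a minimum mean of 10 in the rule and -0.54 with one of 100. The difference of the members' median from that of all genes lay between -0.50 and -0.32 in all settings run on the 107 members.

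Leaving out each library in turn gave 0 members and 0 genes called in either direction by limma in all 4 fits, in which the lone library of a fraction is assumed to vary like the others; at an unadjusted p under 0.05, 41, 52, 2 and 2 members were lower and 7, 9, 1 and 2 higher without mitochondrial replicates 1 and 2 and rest replicates 1 and 2, beside 22.3%, 27.4%, 3.85% and 4.52% of all genes lower and 15.6%, 19.2%, 4.86% and 5.31% higher, so that without either rest library the count of members lower was under the share of all genes. The members' median then ranged from -0.59 to -0.46. Over these 4 fits the log2 fold change crossed 0 for Zfp644 (-0.15 to 0.33), Zfp260 (-0.39 to 0.19) and Zfp598 (-0.94 to 0.34). It had the sign opposite to the reported one for Zfp644 without mitochondrial replicate 1 and, at -0.04, without rest replicate 1, for Zfp260 without mitochondrial replicate 1 and for Zfp598 without mitochondrial replicate 2. With the library total it was -2.82 for Zfp106, -3.70 for Zfp652, -3.88 for Zfp644, -3.33 for Zfp651, -3.54 for Zfp91, -3.19 for Zfp706, -3.09 for Zfp622, -2.66 for Zfp330 and -2.90 for Zfp358. With the total without the mitochondrial chromosome it was -0.59 for Zfp652, -0.77 for Zfp644, -0.22 for Zfp651, -0.44 for Zfp91, -0.089 for Zfp706 and -0.036 for Zfp622. For Zfp106, Zfp330 and Zfp358 it stayed positive under that scaling, at 0.30, 0.39 and 0.11. The cause was not tested.

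In the fit with the replicate block, limma called 3 members lower (Zfp445, Zfp521 and Zfp638) and 0 higher, and 309 genes lower and 470 higher. The libraries share only a number: the differences between replicates 1 and 2 of the fractions had a Pearson's r of 0.13 over 12150 genes and 0.17 over the 107 members, and no label says that a number marks a shared animal. Depth limits the low members, since 3 reads give 11.6 and 7.65 normalized counts in mitochondrial replicates 1 and 2.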
